A study of Mus musculus with 2 samples.

Results

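The genes described here are 8 regulators and matrix genes of tendon, articular cartilage and joint tissue: *Scx*, *Mkx*, *Tnmd*, *Prg4*, *Cilp*, *Cilp2*, *Osr1* and *Osr2*. They were chosen by gene symbol, and all 8 were found among the 24421 rows of the deposited count table. The RNA-Seq data hold 1 library of primary chondrocytes from rib cartilage and 1 library of primary dermal fibroblasts from dorsal skin, the control cells of the study. Both were prepared from newborn mice by collagenase digestion and taken up in medium with serum. Chondrocytes were used at an early passage, and the methods for the skin name a step that removes the dermis before the cells are dispersed. No allele, transgene or treatment is named for these cells, and strain and number of animals per preparation are not given in the sources used here. The counts summed to 18788599 in chondrocytes and 17563724 in dermal fibroblasts. With 1 library of each cell type, no difference below has a replicate check and no p-value was computed. Each interval is a 95% interval for counting error alone, and describes these 2 libraries rather than the cell types.

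Tendon, ligament and the tissues of the joint arise from mesenchyme close to the cartilage anlagen, and their precursors share a history with chondrocytes. Scleraxis (*Scx*), a basic helix-loop-helix factor, marks tendon progenitors, and the homeobox factor Mohawk (*Mkx*) acts in the maturation of tendon. Tenomodulin (*Tnmd*), a membrane glycoprotein of mature tendon cells, is a known target of Scx. *Prg4* encodes lubricin, which is made at the articular surface and by synovium, while *Cilp* and *Cilp2* encode related proteins of the cartilage interterritorial matrix and other connective tissues. *Osr1* and *Osr2* encode zinc finger factors of the odd-skipped family, which act in joint formation and are also expressed in connective tissue fibroblasts.

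The data fall into 3 patterns. *Scx*, *Mkx*, *Prg4* and *Cilp2* had more reads in chondrocytes, *Osr1*, *Osr2* and *Cilp* had more in dermal fibroblasts, and *Tnmd* lay within 2-fold with slightly more in dermal fibroblasts. Both paralog pairs split in some way: *Cilp* and *Cilp2* went in opposite directions, and *Osr2* differed more than *Osr1*. These pairs are therefore shown first at the sequence level, since reads of near-identical copies could be assigned to the wrong gene.

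The following lines show the stretch of 120 bases in which the coding sequences of *Osr1* and *Osr2* were most alike, from the GENCODE vM1 transcripts, 5′ to 3′, with capitals at the bases that differ. It runs from base 607 to 726 of the *Osr1* coding sequence and from base 598 to 717 of that of *Osr2*, counted from the start codon.
Osr1: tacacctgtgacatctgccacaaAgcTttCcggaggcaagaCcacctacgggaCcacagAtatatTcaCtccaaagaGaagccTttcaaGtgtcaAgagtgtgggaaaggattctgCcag
Osr2: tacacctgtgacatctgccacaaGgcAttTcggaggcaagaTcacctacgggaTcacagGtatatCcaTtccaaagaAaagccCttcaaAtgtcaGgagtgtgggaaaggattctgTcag
In this stretch 107 of 120 bases were identical (89.2%), and all 13 differing bases were at the third position of a codon. The longest run shared without a mismatch by the coding sequences of both genes was 23 bases, which is shorter than a read of these libraries. The same comparison is shown for *Cilp* (bases 3187 to 3306 of the coding sequence) and *Cilp2* (bases 3160 to 3279).
Cilp: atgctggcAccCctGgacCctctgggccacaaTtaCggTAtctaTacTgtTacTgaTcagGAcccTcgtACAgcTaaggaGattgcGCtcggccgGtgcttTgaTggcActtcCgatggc
Cilp2: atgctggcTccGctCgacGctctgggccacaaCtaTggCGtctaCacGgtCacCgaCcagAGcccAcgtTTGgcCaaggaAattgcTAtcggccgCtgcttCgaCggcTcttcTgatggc
Here 92 of 120 bases were identical (76.7%), 20 of the 28 differing bases were at the third position, and the longest exact run was 14 bases. No stretch as long as a read was thus identical within either pair in these coding sequences, and untranslated regions were not compared.

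Before the values are compared, the label of each library was checked against marker genes. *Col2a1*, the main collagen of cartilage, had 1447098 counts in chondrocytes against 0 in dermal fibroblasts, and *Acan* (aggrecan) had 148105 and 35. All 8 chondrocyte markers were over 2-fold higher in the chondrocyte library and all 8 fibroblast markers in the dermal fibroblast library, among them *Col1a1* with 39143 counts in chondrocytes against 322379 in dermal fibroblasts. Counts were scaled with edgeR TMM factors and are given as CPM, the count scaled to a common library size, where levels are compared. The median log2 fold of the 14291 genes with at least 10 counts in 1 library was then -0.003. All 8 genes passed this minimum. Of these 14291 genes, 11.8% were over 2-fold higher in chondrocytes and 16.2% in dermal fibroblasts. Of the 8 genes, 4 were over 2-fold higher in chondrocytes and 3 in dermal fibroblasts. An interval wholly beyond 2-fold was found for 3 genes in each direction, against 7.21% and 10.8% of all genes tested. Among the 6042 genes whose larger count lay between 45 and 598, as it did for the 8 genes, the shares over 2-fold were 11.2% and 16.3%.

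**Figure D1:**
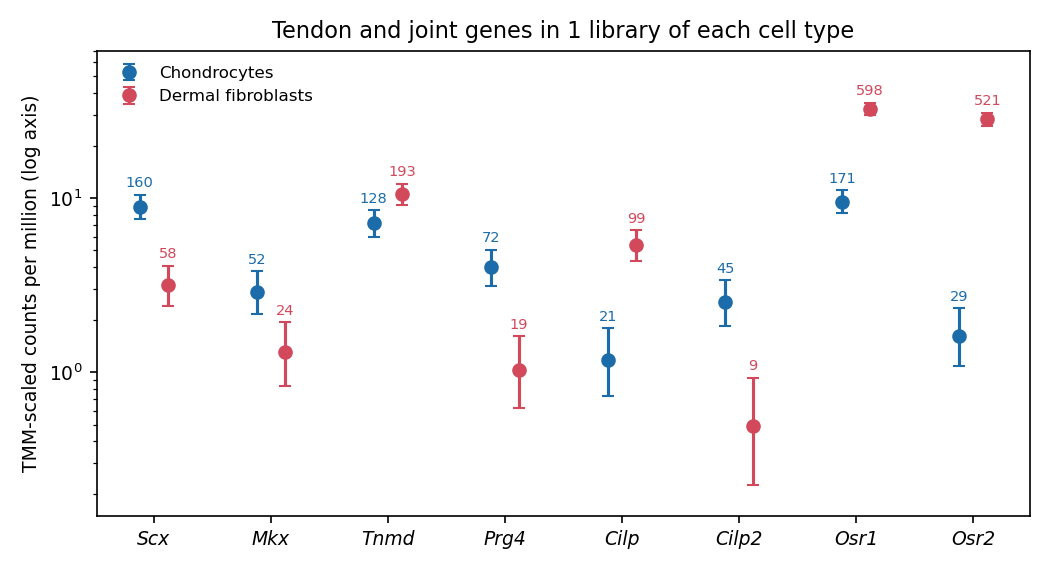
CPM after TMM scaling (log axis) of the 8 genes in the chondrocyte library (blue) and the dermal fibroblast library (red), with exact 95% Poisson intervals of the count and the count itself above each point. The intervals of both libraries lie apart for all 8 genes and come closest for *Tnmd* and *Mkx*.

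The tendon genes came first. *Scx* (chromosome 15 of GRCm38, 76457411 to 76459468, plus strand) had 160 counts in chondrocytes against 58 in dermal fibroblasts, which is 8.93 and 3.15 CPM. It was 2.83-fold higher in chondrocytes (interval 2.09 to 3.90), a larger fold than that of 92.7% of the genes tested. *Mkx* (chromosome 18, 6934966 to 7004779, minus strand) had 52 and 24 counts, or 2.90 and 1.30 CPM. It was 2.23-fold higher in chondrocytes, and its interval of 1.35 to 3.78 reached below 2-fold. The order was the other way for *Tnmd* (chromosome X, 133851008 to 133865577, plus strand), with 128 counts in chondrocytes against 193 in dermal fibroblasts, or 7.14 and 10.5 CPM. *Tnmd* was higher in dermal fibroblasts by 1.47-fold (interval 1.17 to 1.85), and this difference did not reach 2-fold. The factor and its known target thus differed in opposite directions. There were 1.25 *Scx* reads per *Tnmd* read in chondrocytes (interval 0.985 to 1.59) and 0.301 in dermal fibroblasts (interval 0.220 to 0.405). Such a ratio within a library does not depend on the scaling between libraries, and it was 4.15 times as large in chondrocytes (interval 2.82 to 6.17). The ratio of *Scx* to *Mkx* was 3.08 in chondrocytes and 2.42 in dermal fibroblasts, and the interval of the difference between them, 0.685 to 2.32 times, included equality. The sum over the 3 tendon genes was 340 counts against 275, 1.27-fold higher in chondrocytes (interval 1.08 to 1.49). *Scx* made up 47.1% of the sum in chondrocytes and *Tnmd* 70.2% of it in dermal fibroblasts.

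The annotation limits the reading of *Scx*. In RefSeq for GRCm38, the whole span of *Scx* (2058 bp) lies inside *Bop1*, a ribosome biogenesis gene on the opposite strand, and in GENCODE vM1 the exons of both share 0 bp. *Bop1* had 1284 counts in chondrocytes against 1028 in dermal fibroblasts. Its fold of 1.28 (interval 1.18 to 1.39) was smaller than that of *Scx*. The library kit keeps the strand, but whether the counting used it is not given in the sources used here, and whether reads of unspliced *Bop1* RNA entered the *Scx* count was not tested.

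Of the articular matrix genes, *Prg4* (chromosome 1, 150449412 to 150466221, minus strand) had 72 counts in chondrocytes against 19 in dermal fibroblasts, or 4.02 and 1.03 CPM. It was 3.89-fold higher in chondrocytes (interval 2.32 to 6.84). *Cilp2* (chromosome 8, 69880366 to 69887392, minus strand) had 45 and 9 counts, or 2.51 and 0.489 CPM, and was 5.14-fold higher in chondrocytes (interval 2.48 to 12.0), the largest fold of the 8 genes in that direction. The width of this interval reflects the 9 reads in dermal fibroblasts. *Cilp* (chromosome 9, 65265180 to 65280614, plus strand) had 21 counts in chondrocytes against 99 in dermal fibroblasts, or 1.17 and 5.38 CPM, and was higher in dermal fibroblasts by 4.59-fold (interval 2.85 to 7.74). The chondrocyte library thus held 0.467 *Cilp* reads per *Cilp2* read (interval 0.264 to 0.800) and the dermal fibroblast library 11.0 (interval 5.57 to 24.8). The ratio was 23.0 times as large in dermal fibroblasts (interval 9.38 to 62.1), the largest shift among the 4 pairs compared. With these opposite directions, the sum over the 3 genes had an interval that included equality, at 138 counts in chondrocytes against 127 in dermal fibroblasts (1.12-fold, interval 0.871 to 1.43). *Prg4* made up 52.2% of the sum in chondrocytes, and *Cilp* made up 78.0% in dermal fibroblasts. The span of *Prg4* shares 524 bp with the nuclear pore gene *Tpr* on the opposite strand, which had 4061 and 3715 counts (1.12-fold, interval 1.07 to 1.17), and 201 bp of their exons overlap in GENCODE vM1. At this overlap *Prg4* and *Tpr* reads cannot be told apart without the strand. In RefSeq the span of *Cilp* shares 1738 bp with the long noncoding RNA gene *Gm36538*. That of *Cilp2* shares 3968 bp with the long noncoding RNA gene *Gm33746*. Neither noncoding gene has a count in these data, and whether their reads entered the *Cilp* or *Cilp2* counts was not tested.

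The odd-skipped genes had the most reads of the 8 in dermal fibroblasts. *Osr1* (chromosome 12, 9574442 to 9581500, plus strand) had 171 counts in chondrocytes against 598 in dermal fibroblasts, or 9.54 and 32.5 CPM, and was higher in dermal fibroblasts by 3.41-fold (interval 2.87 to 4.06). *Osr2* (chromosome 15, 35296098 to 35303305, plus strand) had 29 and 521 counts, or 1.62 and 28.3 CPM. It was higher in dermal fibroblasts by 17.5-fold (interval 12.0 to 26.4), the largest difference of the 8 genes, and 0.987% of the genes tested had a lower fold. Both genes went in the same direction, but by different amounts. In chondrocytes there were 5.90 *Osr1* reads per *Osr2* read (interval 3.96 to 9.07), and in dermal fibroblasts 1.15 (interval 1.02 to 1.29), so that the ratio was 5.13 times as large in chondrocytes (interval 3.38 to 8.03). The sum of both genes was 200 counts in chondrocytes against 1119 in dermal fibroblasts (5.45-fold, interval 4.68 to 6.36). It accounts for most of the 1521 reads of the 8 genes in dermal fibroblasts, against 678 reads in chondrocytes.

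**Figure D2:**
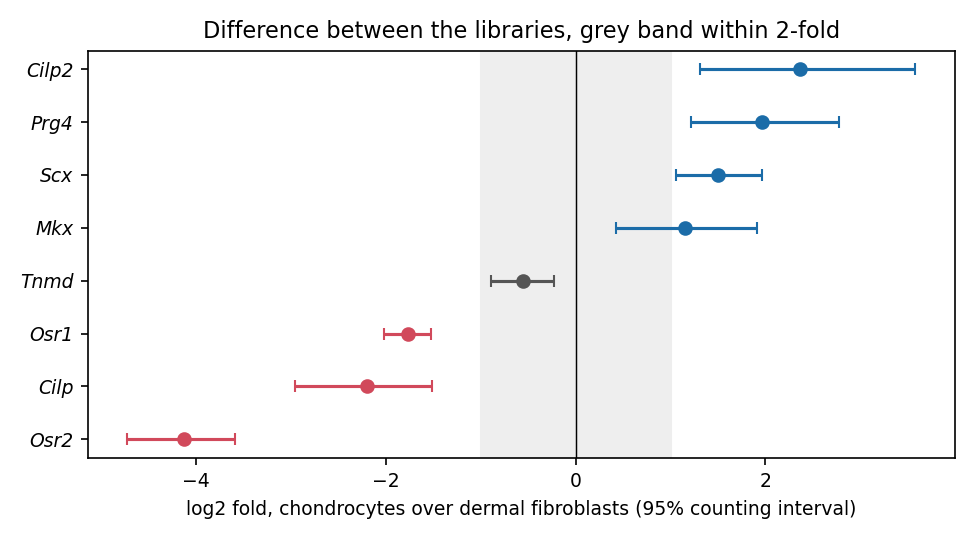
Log2 fold of each gene, chondrocytes over dermal fibroblasts, after TMM scaling, with its 95% counting interval, where the grey band marks differences within 2-fold. *Cilp2*, *Prg4*, *Scx* and *Mkx* lie to the right (log2 fold 2.36, 1.96, 1.50 and 1.15) and *Osr1*, *Cilp* and *Osr2* to the left (-1.77, -2.20 and -4.13), with *Tnmd* inside the band at -0.55.

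**Figure D3:**
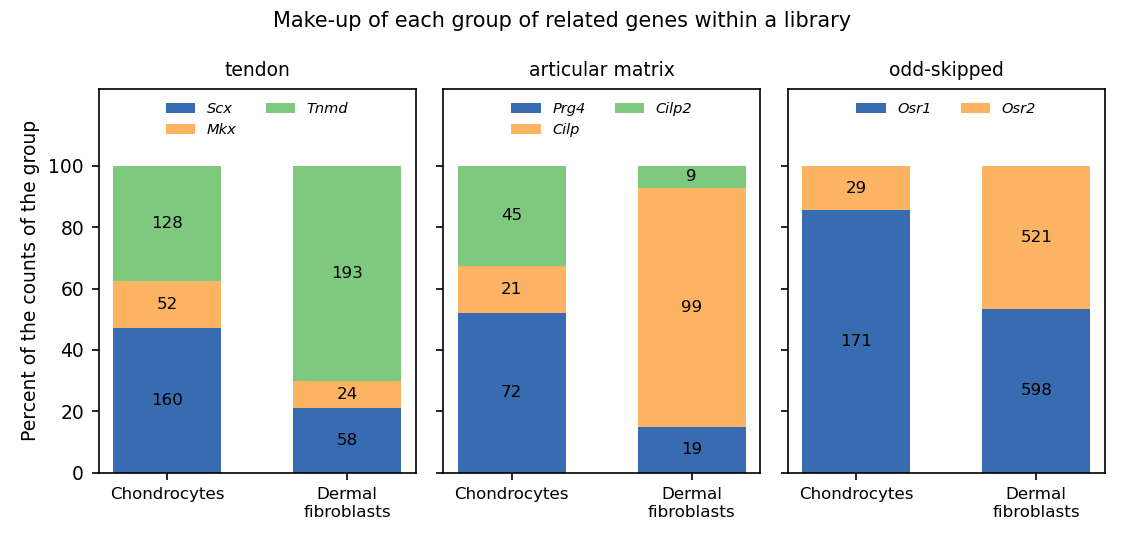
Percent of the counts of each group of related genes that each gene took within a library (tendon genes, articular matrix genes and odd-skipped genes), with the count written in each bar. *Tnmd* rather than *Scx*, *Cilp* rather than *Prg4* and *Cilp2*, and an almost even share of *Osr1* and *Osr2* mark the dermal fibroblast library.

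To compare levels between genes, scaled CPM were divided by the length of the annotated exons in kilobases (GENCODE vM1). In chondrocytes *Scx* had the highest level at 7.86 CPM per kilobase, followed by *Tnmd* at 5.28 and *Osr1* at 4.75. The intervals of *Tnmd* and *Osr1* overlapped, while that of *Scx* (6.69 to 9.17) did not overlap that of *Tnmd* (4.40 to 6.28). *Osr2* (0.939), *Prg4* (0.939), *Mkx* (0.906) and *Cilp2* (0.582) followed, each overlapping its neighbour, and *Cilp* was lowest at 0.273. In dermal fibroblasts *Osr2* (16.4) and *Osr1* (16.2) led with overlapping intervals, and *Tnmd* (7.75), *Scx* (2.77) and *Cilp* (1.25) came next, each apart from its neighbours. *Mkx* (0.407), *Prg4* (0.241) and *Cilp2* (0.113) were the lowest, each overlapping the next. *Osr2* therefore moved from the same level as *Prg4* and *Mkx* to the top of the order, and *Cilp* from below *Cilp2* to above it. With coding length in place of exon length, a choice made after seeing the data, *Osr1* stood above *Tnmd* in chondrocytes, *Mkx* above *Osr2* and *Prg4*, and *Osr1* above *Osr2* in dermal fibroblasts. The other places did not change.

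**Figure D4:**
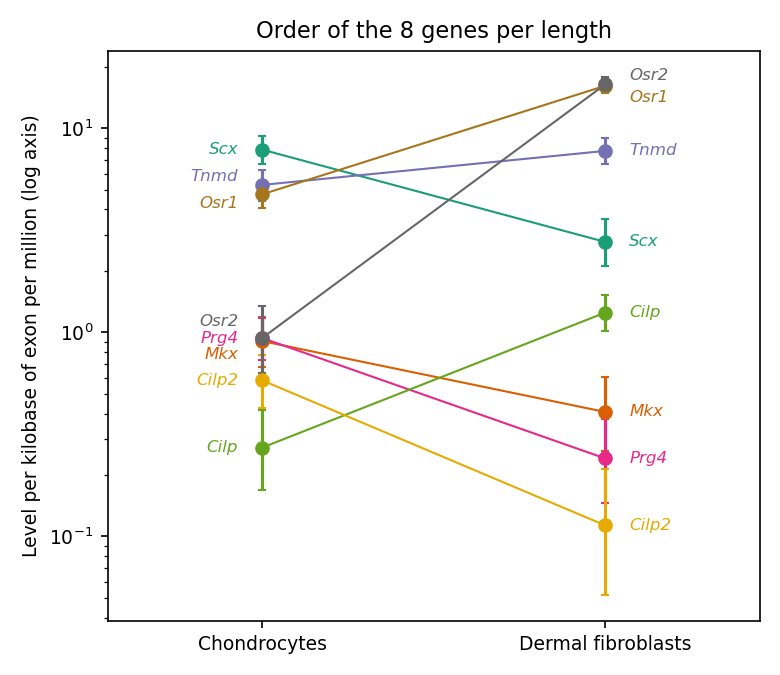
Scaled CPM per kilobase of annotated exon (log axis) of the 8 genes in each library, with 95% Poisson intervals and a line joining the values of a gene. The line of *Osr2* climbs from 0.939 to 16.4 and crosses those of *Scx* and *Tnmd*, and the lines of *Cilp* and *Cilp2* cross each other.

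Upstream sequence was on hand for *Tnmd*, *Cilp* and *Cilp2* in the RefSeq promoter table used. The 250 bases before the start of the *Cilp* pair are shown because these paralogs differed most in their ratio. Capitals mark matches to the E-box pattern CANNTG, the core bound by basic helix-loop-helix factors such as Scx. A match on either strand is also a match on the other, although its central bases (NN) can differ between the strands. The *Cilp* window is chr9:65264930-65265179 and the *Cilp2* window chr8:69887393-69887642, each on the strand of its gene and in GRCm38.p6.
Cilp: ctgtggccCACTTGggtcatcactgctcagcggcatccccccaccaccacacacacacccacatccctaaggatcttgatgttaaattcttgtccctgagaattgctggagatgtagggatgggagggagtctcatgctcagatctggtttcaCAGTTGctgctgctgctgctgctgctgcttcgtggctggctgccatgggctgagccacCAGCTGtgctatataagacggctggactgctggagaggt
Cilp2: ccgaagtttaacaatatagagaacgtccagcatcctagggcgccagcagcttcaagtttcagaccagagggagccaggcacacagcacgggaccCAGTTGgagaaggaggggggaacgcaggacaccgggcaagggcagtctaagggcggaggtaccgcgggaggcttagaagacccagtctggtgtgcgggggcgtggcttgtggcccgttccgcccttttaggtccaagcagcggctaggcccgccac
The *Cilp* window held 3 matches, which begin 242, 97 and 39 bases before the start, and the *Cilp2* window held 1 match, 156 bases before the start. The *Tnmd* window held 0 matches. Of 32851 windows of this length in the table, 66.2% held at least 1 match and 12.2% held 3 or more. A match describes letters only, and no binding was measured here.

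The other genes of tendon and joint formation were described from 6 lists of related genes, without the 8 genes themselves. Among the 6 other transcription factors of tendon, 2 passed 2-fold in the direction of chondrocytes and 2 in that of dermal fibroblasts (median log2 fold -0.20). *Nfatc4* had 586 counts in chondrocytes against 2786 in dermal fibroblasts and was higher in dermal fibroblasts by 4.63-fold (interval 4.23 to 5.07). *Egr1*, an early response factor that also acts in tendon, had the most reads, with 3900 and 5319 counts, 1.33-fold higher in dermal fibroblasts. *Egr2* had 183 and 421 counts (2.24-fold, interval 1.88 to 2.68), and *Foxp1* lay at 1.01-fold with 467 and 475 counts.

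The tendon matrix list leaned toward dermal fibroblasts, with 15 of 21 genes over 2-fold higher there, 4 over 2-fold higher in chondrocytes and a median log2 fold of -1.56, against -0.003 over all genes tested. Most of its genes encode collagens and small leucine-rich proteoglycans, many of which skin also makes. *Col1a1* was higher in dermal fibroblasts by 8.02-fold (interval 7.94 to 8.10), *Col3a1* 8.30-fold (32090 and 273385 counts) and *Thbs2*, a matricellular thrombospondin, 10.4-fold (4967 and 52992 counts). The 2 genes with the largest folds in chondrocytes were also thrombospondins: *Comp* had 25116 and 4 counts (6449-fold, interval 2518 to 23671), and *Thbs4*, which is abundant in tendon, had 3668 and 220 counts (17.1-fold, interval 14.9 to 19.7). The list thus held large differences in both directions, also among the thrombospondins. A shared direction therefore does not set *Scx* or *Tnmd* with any of these genes. *Col1a1* and *Col3a1* are also among the dermal fibroblast markers used above to check the labels.

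Of the 15 tested genes for tendon inductive signals, 4 were over 2-fold higher in each library and 7 lay within 2-fold (median log2 fold -0.27). The ligand *Tgfb2* had 1426 counts in chondrocytes against 217 in dermal fibroblasts (6.75-fold higher in chondrocytes, interval 5.85 to 7.82), whereas the ligand *Tgfb1* had 577 and 2007 counts (3.39-fold higher in dermal fibroblasts, interval 3.09 to 3.72). The co-receptor *Tgfbr3* had 2579 and 10184 counts and was 3.85-fold higher in dermal fibroblasts. *Etv5*, a transcriptional target of FGF signaling, was 2.29-fold higher in chondrocytes with 884 and 396 counts (interval 2.03 to 2.59).

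The joint interzone is the band of flattened cells that forms where a joint will be. Of its 16 tested genes, 4 were over 2-fold higher in chondrocytes and 7 in dermal fibroblasts (median log2 fold -0.54). *Gdf5*, the ligand that marks the interzone, had 114 counts in chondrocytes against 4 in dermal fibroblasts and was 29.3-fold higher (interval 11.1 to 109). *Erg*, an ETS factor of articular chondrocytes, had 159 and 20 counts and was 8.17-fold higher (interval 5.11 to 13.7). In contrast the secreted glycoprotein *Dkk3* had 174 and 3461 counts (19.4-fold higher in dermal fibroblasts, interval 16.6 to 22.7), and the ligand *Wnt16* had 34 and 354 counts (10.1-fold, interval 7.12 to 14.9). The receptor *Tgfbr2* had the most reads of the list over both libraries, with 3320 and 8182 counts (2.40-fold higher in dermal fibroblasts). Like the joint genes among the 8, this list therefore held large differences in both directions.

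Of the 14 other genes of the articular surface list, 8 were over 2-fold higher in chondrocytes and 5 in dermal fibroblasts, with a median log2 fold of 1.47. *Chad*, a cartilage leucine-rich repeat protein, had 634 counts in chondrocytes against 7 in dermal fibroblasts (93.0-fold, interval 44.9 to 232). *Thbs4*, named above, is also on this list with the next largest fold, and *Ogn*, a small proteoglycan and the gene with the most reads here, had 8542 and 1459 (6.01-fold, interval 5.69 to 6.36). *Dpt*, a dermal matrix protein, had 278 and 5155 counts (18.1-fold higher in dermal fibroblasts, interval 16.0 to 20.4), and the protease *Htra1* had 909 and 4812 (5.15-fold, interval 4.80 to 5.54).

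Of 11 relatives of the 8 genes, 5 had at least 10 counts in 1 library, of which 2 were over 2-fold higher in chondrocytes and 3 in dermal fibroblasts (median log2 fold -2.34). *Lect1*, which encodes chondromodulin, the closest relative of tenomodulin, had 33082 counts in chondrocytes against 0 in dermal fibroblasts. With the 0 set to the floor of 3 counts, it was 11326-fold higher in chondrocytes. That figure takes no counting error into account, and with it the interval began at 9210-fold and had no upper end. *Tnmd* itself had 128 and 193. The Iroquois factors *Irx1* (5 and 2462 counts, 479-fold) and *Irx2* (14 and 1017 counts, 70.7-fold), homeobox relatives of *Mkx*, were higher in dermal fibroblasts, and *Irx3* (411 and 199 counts) was 2.12-fold higher in chondrocytes. Over all 6 lists, 74 of 85 genes had at least 10 counts in 1 library, of which 22 were over 2-fold higher in chondrocytes, 35 in dermal fibroblasts and 17 within 2-fold. Of all 14291 genes tested, 11.8% were over 2-fold higher in chondrocytes and 16.2% in dermal fibroblasts. The lists include *Col1a1*, *Col1a2*, *Col3a1* and *Dpt*, which are also dermal fibroblast markers, and were chosen with earlier results known.

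**Figure D5:**
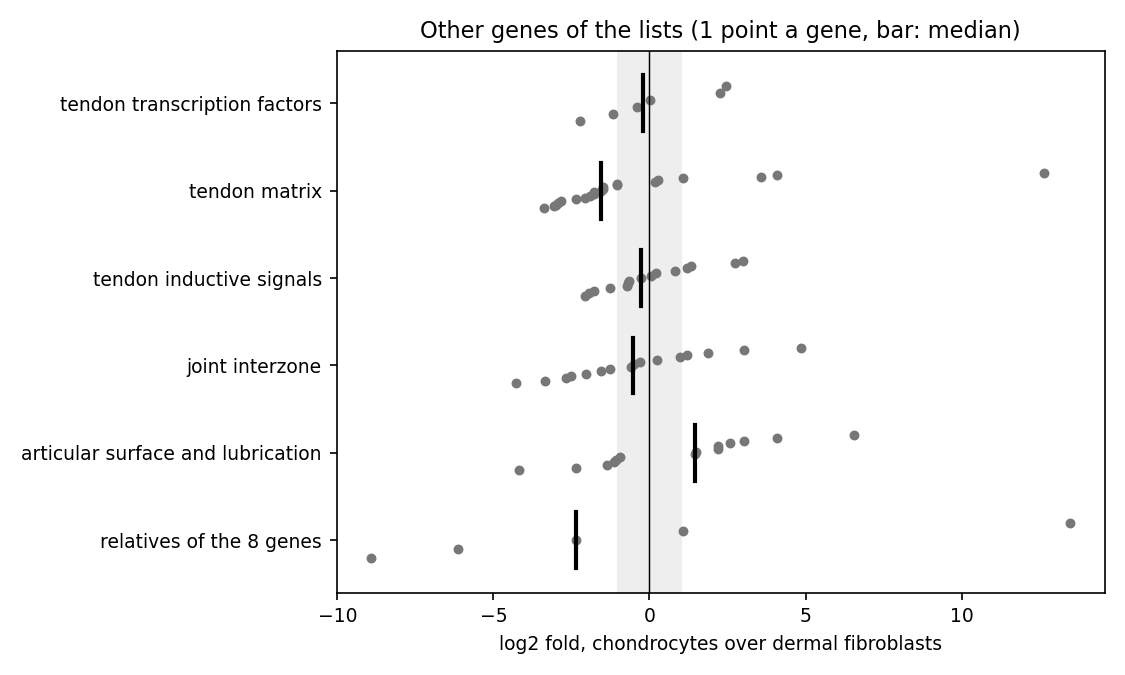
Log2 fold, chondrocytes over dermal fibroblasts, of each gene with at least 10 counts in 1 library in the 6 lists, without the 8 genes themselves, where the black bar is the median of a list and the grey band marks differences within 2-fold. The tendon matrix list lies mostly to the left (median -1.56). The articular surface list is split, with 8 of 14 genes right of the band and 5 left of it (median 1.47). Genes at 0 reads, such as *Lect1* in dermal fibroblasts, are drawn at a floor of 3 counts.

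For the 4 genes with at least 100 counts, the gene with the most similar pair of levels was looked up by its distance on the log2 CPM scale, over 2 libraries. These were *Fancb* for *Scx* (162 and 58 counts), *Ten1* for *Tnmd* (129 and 192), *Meis3* for *Osr1* (174 and 614) and *Usp18* for *Osr2* (28 and 545). Within a distance of 0.25 there were 16, 98, 21 and 5 genes. Pairs of levels near those of *Tnmd* were thus common, and those near *Osr2* were few.

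Genes listed as markers of other cell types had reads in both libraries. In bulk RNA, fewer cells of a type cannot be told apart from less RNA per cell. All 10 skeletal muscle markers had reads in both libraries, 1 of them with 3 or fewer counts in dermal fibroblasts. Their summed level was 1877 CPM in chondrocytes and 1325 CPM in dermal fibroblasts, and 6 of them were over 2-fold higher in chondrocytes. Those with the most reads, *Myh3* and *Actc1*, had 7784 and 7288 counts in chondrocytes against 6497 and 7970 in dermal fibroblasts. The 7 osteoblast and perichondrium markers summed to 669 CPM in chondrocytes and 238 CPM in dermal fibroblasts. They were led by *Spp1* (9639 and 3413 counts) and *Runx2* (1051 and 778), with *Bglap* at 0 in dermal fibroblasts. Whether the reads of this list in the chondrocyte library came from other cells or from the chondrocytes themselves was not tested. The 6 keratinocyte markers summed to 8.93 and 249 CPM, with *Krt14* at 17 and 1939 counts and *Krt5* at 1 and 1693. Of these 6, 4 were over 2-fold higher in dermal fibroblasts and 2 lay within 2-fold. The 5 endothelial markers summed to 13.6 and 40.7 CPM (*Kdr* 70 and 276 counts, *Cdh5* 68 and 198), and the 5 macrophage markers to 48.2 and 79.9 CPM (*Cd68* 423 and 600, *Csf1r* 160 and 430). Markers of synovial lining and tendon sheath other than *Prg4* had nearly the same sum, at 46.4 and 47.8 CPM, but single genes split, with *Hbegf* at 538 and 161 counts and *Cd55* at 26 and 497. The part of these cells in the reads of *Scx*, *Mkx*, *Tnmd*, *Prg4*, *Cilp*, *Cilp2*, *Osr1* and *Osr2* was not tested.

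The directions of all 8 genes were the same with each of 6 scalings of the libraries. Relative to TMM, total counts moved every log2 fold by -0.14 and *Actb* by 0.12, and with total counts the fold of *Mkx* was 2.03, close to the 2-fold threshold. *Scx* ranged from 2.58 to 3.08-fold, *Prg4* from 3.54 to 4.24-fold and *Cilp2* from 4.67 to 5.59-fold higher in chondrocytes. *Tnmd* ranged from 1.35 to 1.61-fold, *Osr1* from 3.13 to 3.74-fold, *Cilp* from 4.22 to 5.04-fold and *Osr2* from 16.1 to 19.2-fold higher in dermal fibroblasts.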

How the data were processed

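Total RNA of both cell types was made into stranded mRNA libraries. The authors mapped the single-end reads to mm10 (GRCm38) with TopHat 2.0.13, Bowtie2 2.2.3 and SAMtools 0.1.19 after base calling with CASAVA 1.8.2, and the deposited values are raw counts, as whole numbers for each gene symbol. The counting program, its annotation and its strand setting are not given in the sources used here. Both value columns carry the name of a sample.

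Counts were scaled with TMM factors (edgeR 4.0.16 in R 4.3.3), and folds and intervals were obtained in Python 3.11.15 (scipy 1.17.1, numpy 2.4.6, pandas 2.3.3). A floor of 3 counts applied to every fold, which touched none of the 8 genes. Intervals are 95% Clopper-Pearson for folds, shares and ratios within a library, exact conditional for differences between such ratios, and Poisson for levels. They cover counting error only: reads were not collapsed to molecules by identifiers, and so are not independent. A gene was called where its fold was over 2. Alternatives were total counts, DESeq2 1.42.0 size factors, the upper quartile, total counts without the 10 most abundant genes, *Actb*, no filter, a pseudocount of 1, floors of 1 and 10 counts, a fold over 4, and an interval wholly beyond 2-fold. The calculations were tested on simulated counts. Gene positions are those of RefSeq for GRCm38.p6, and exon lengths, strands and transcripts those of GENCODE vM1 (NCBIM37), with no position converted.

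The 8 genes and all lists were chosen with earlier results of these data known. Besides the 8 genes, the text names, from each list of related genes and among those with at least 100 counts, the 2 largest folds, the 2 smallest and the gene with the most reads over both libraries, the 2 genes with the most reads of each marker list, and the genes nearest in level. *Bop1*, *Tpr*, *Gm36538* and *Gm33746* were named for their position and *Bglap* for its 0 count, all after the values were seen. A gene that this rule names in the list of tendon transcription factors is not reported here.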

Additional observations from a re-analysis of the deposited data

How the results depend on the processing

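No paired analysis was possible because there was 1 library of each cell type, and for the same reason no library could be left out. The fold of each of the 8 genes stayed within its counting interval and kept its direction under the 5 other scalings, floors of 1 and 10 counts and a pseudocount of 1. The number of these genes over 2-fold higher was 4 in chondrocytes and 3 in dermal fibroblasts under each of these and without the filter. It was 3 and 3 where the whole interval had to lie beyond 2-fold, which *Mkx* did not meet, and 1 (*Cilp2*) and 2 (*Cilp* and *Osr2*) with a fold over 4. With a fold over 4, the genes of the 6 lists went from 22 and 35 to 14 and 19, and all genes from 1684 and 2319 to 713 and 929, since a stricter threshold removes genes by construction. With the whole interval beyond 2-fold, all genes came to 1031 and 1546. Levels per protein length were not run, and coding length was used in its place. Depth limits *Cilp2* (9 reads in dermal fibroblasts), *Prg4* (19), *Cilp* (21 in chondrocytes) and *Mkx* (24) most.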
